A study of Mus musculus with 6 samples.

Results

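CircRNAs of white preadipocytes were compared between day 4 (D4) after the induction of adipogenesis and day 0 (D0), the proliferation stage. The members of the comparison were the 2 D0 and the 2 D4 libraries, 4 of the 6 libraries of the series, and every circRNA of the count table. The 2 day 8 (D8) libraries entered the fits to estimate the spread, and they also counted in the read filter and the normalization factors. The cells were those of the stromal vascular fraction (SVF) of inguinal white fat from female C57BL/6J mice, 6 weeks old. D0 cells were taken before induction. D4 cells had spent 4 days in medium with 10% serum and an induction cocktail of insulin, dexamethasone and IBMX. The SVF is what remains of a fat pad when its adipocytes are removed, and besides preadipocytes it can hold endothelial, perivascular and immune cells. Total RNA was freed of ribosomal RNA and treated with RNase R, an enzyme that digests linear RNA and spares circles.

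A circRNA forms when the end of an exon is joined back to the start of the same exon or of one further upstream, a reaction called back-splicing. Its only unique sequence is that joint, so only reads across it count for the circle, and such reads are few. Induced preadipocytes leave the cell cycle, switch on PPARγ and C/EBP transcription factors and then fill with lipid. Dexamethasone acts through the glucocorticoid receptor, IBMX raises cAMP by blocking phosphodiesterases, and insulin drives glucose uptake and lipid storage. TGF-β, which holds adipogenesis back, and BMPs, which can promote it, act through paired receptors and Smad proteins.

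The 2 D0 libraries held 30110 and 32310 back-splice reads and the 2 D4 libraries 43069 and 41658, spread over 3662 circRNAs of 2017 parental genes. A circRNA had a median of 17 reads over the 4 libraries together, and 31.1% of its values on D0 and D4 were listed at 0. Levels are given as reads per library or as circCPM, reads per 1000000 circRNA reads of the library, so that 1 read was worth 23.2 to 33.2 circCPM. The table holds no value of exactly 1, so a listed 0 can stand for a single read, and fold changes are left out where a stage had no listed read or 1 to 3 reads in total. Across the tested circRNAs, the Spearman correlation between replicates was 0.625 on D0 and 0.730 on D4. The study calls them biological replicates, and neither it nor the labels say whether they came from separate cultures or animals, so the p-values measure only the spread between these libraries. In bulk samples, fewer cells of a type and less RNA per cell cannot be told apart.

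Of 1407 circRNAs with enough reads to be tested, which held 82.9% of the reads, 31 were higher on D4 (2.2%) and 15 were lower (1.07%) by edgeR's quasi-likelihood F-test at an adjusted p under 0.05. At an unadjusted p under 0.05 the shares were 11.2% higher and 8.67% lower. The read filter used all 6 libraries. With the D0 and D4 libraries only, 968 circRNAs were tested, and 42 were called higher and 34 lower. For each of the 46 called circRNAs both D4 libraries lay on the same side of both D0 libraries in circCPM. Of all 1407 tested, both D4 libraries lay above both D0 libraries for 358 and below them for 384. The 46 calls came from 43 parental genes on 17 chromosomes. Of the 31 higher on D4, 8 were listed at 0 in both D0 libraries, and of the 15 lower, 2 were listed at 0 in both D4 libraries. Where every library held more than 3 reads, the means of circCPM differed by 2.02- to 9.47-fold for the 17 such circRNAs that were higher and by 2.93- to 9.56-fold for the 10 that were lower. The median log2 fold change over all tested circRNAs was 0.03. The adjusted p of the calls ran from 0.00683 to 0.0489, and 9 of them were at 0.04 or more. Where a library was omitted, its stage was left with 1, and the other stages gave the spread. Calls were then lost by their adjusted p, and none of the 46 changed sign. Without D4 replicate 1, 3 of the 46 were still called and without D4 replicate 2, 4 were, against 26 without D0 replicate 1 and 24 without D0 replicate 2. The losses given with each group are those without a single library, and other filters, depths and factors ended calls as well. Without a read filter 32 remained, and the calls of Arhgef40, Taf4, Acvr2a, Atrnl1, Nudcd3, Crim1, Arhgap10, Ltbp1, Cnot6l, Smad6, Med13l, Dlg5, Stk35 and Ptbp3 were lost (adjusted p 0.0528 to 0.0920). With a mean of 5 or more reads 39 remained, and those of Pcsk5 (exons 6 to 9), Ltbp1, Ptbp3, Stk35, Dlg5, Smad6 and Atrnl1 were lost (0.0507 to 0.0538). Thinning to equal depth ended those of Smad6, Nudcd3 and Ptbp3 (0.0548 to 0.0623), column totals in place of TMM factors that of Ptbp3 (0.0603).

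**Figure D1:**
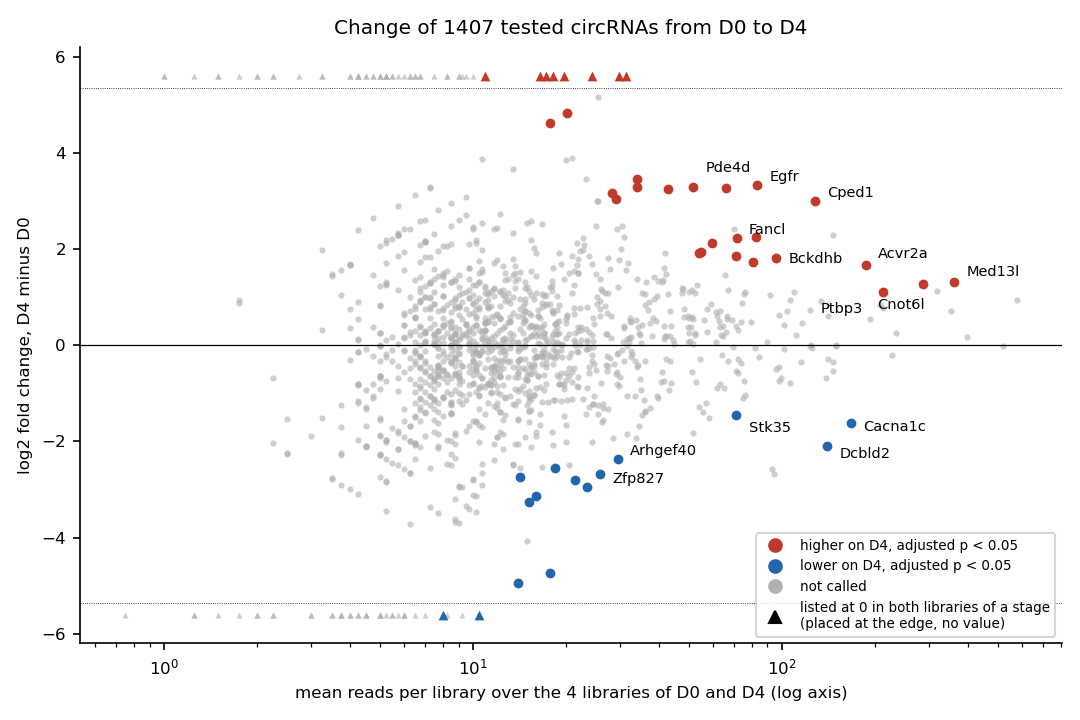
Log2 fold change (D4 minus D0) of the 1407 tested circRNAs against the mean reads per library over the D0 and D4 libraries (log axis). Red points are the 31 higher and blue points the 15 lower on D4, grey points are not called, and triangles mark the 96 circRNAs listed at 0 in both libraries of 1 stage, which are set at the edge and have no value (4 listed at 0 in all of these libraries are not drawn). The calls reach from about the depth of Zbtb38 and Arhgap10 circles to that of Med13l, the called circRNA with the most reads.

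The back-splice joints of 10 called circRNAs are given because they are the sequences that were counted. They are read 5′ to 3′ on the strand of the gene from the mouse genome build mm9, 20 bases on either side of the joint, with the 3 bases on each side of it in capitals. The circles of Egfr, Acss3 (exons 3 to 5) and Cped1 had the smallest p, those of Pde4d, Nfia, Bmper and Tgfbr2 stand for the groups described next, and those of Cacna1c and Arhgap10 were lower on D4. The joints of the 2 Acss3 circles differ in the bases before the joint and share those after it, because both circles start with the same exon.
Egfr exons 14 to 15: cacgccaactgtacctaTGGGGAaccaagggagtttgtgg
Acss3 exons 3 to 5: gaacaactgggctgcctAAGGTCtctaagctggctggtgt
Acss3 exons 3 to 7: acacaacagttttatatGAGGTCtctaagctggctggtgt
Cped1 exons 11 to 15: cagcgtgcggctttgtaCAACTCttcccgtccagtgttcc
Pde4d exons 9 to 13: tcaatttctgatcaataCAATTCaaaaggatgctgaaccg
Nfia exons 3 to 6: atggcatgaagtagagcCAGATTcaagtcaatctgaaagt
Bmper exons 3 to 6: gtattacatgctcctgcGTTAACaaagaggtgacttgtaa
Tgfbr2 exons 3 to 4: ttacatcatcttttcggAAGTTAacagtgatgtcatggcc
Cacna1c exons 2 to 3: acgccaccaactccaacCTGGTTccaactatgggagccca
Arhgap10 exons 14 to 15: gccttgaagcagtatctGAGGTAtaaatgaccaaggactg

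The 3 circRNAs with the smallest p came from Egfr, Acss3 and Cped1, and only these 3 of the 46 calls held in all 16 alternative settings, among them the omission of each library. circ_0002861 of Egfr, the receptor tyrosine kinase for epidermal growth factor, is made of the coding exons 14 to 15 (chr11:16781467-16783616, plus strand). It had 13 and 11 reads in the D0 libraries and 167 and 143 in the D4 libraries. That is a log2 fold change of 3.33 ± 0.294 (SE), with means of 386 ± 64.6 circCPM on D0 and 3655 ± 315 on D4 (SD, n = 2), and an adjusted p of 0.00683 by edgeR. The groups were far apart, and the call had an adjusted p of at most 0.0274 without any 1 library. Acss3 encodes a mitochondrial acyl-CoA synthetase that prefers propionate. Its circRNA of exons 3 to 5 (chr10:106482269-106490572, minus strand) was listed at 0 in both D0 libraries and had 64 and 61 reads on D4 (adjusted p = 0.00752). circ_0001447 of Cped1, a gene with a cadherin-like and a PC-esterase domain, spans exons 11 to 15 (chr6:22082229-22095687, plus strand). It had 21 and 25 reads on D0 and 215 and 252 on D4, a log2 fold change of 2.99 ± 0.327 (SE) and an adjusted p of 0.0103.

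**Figure D2:**
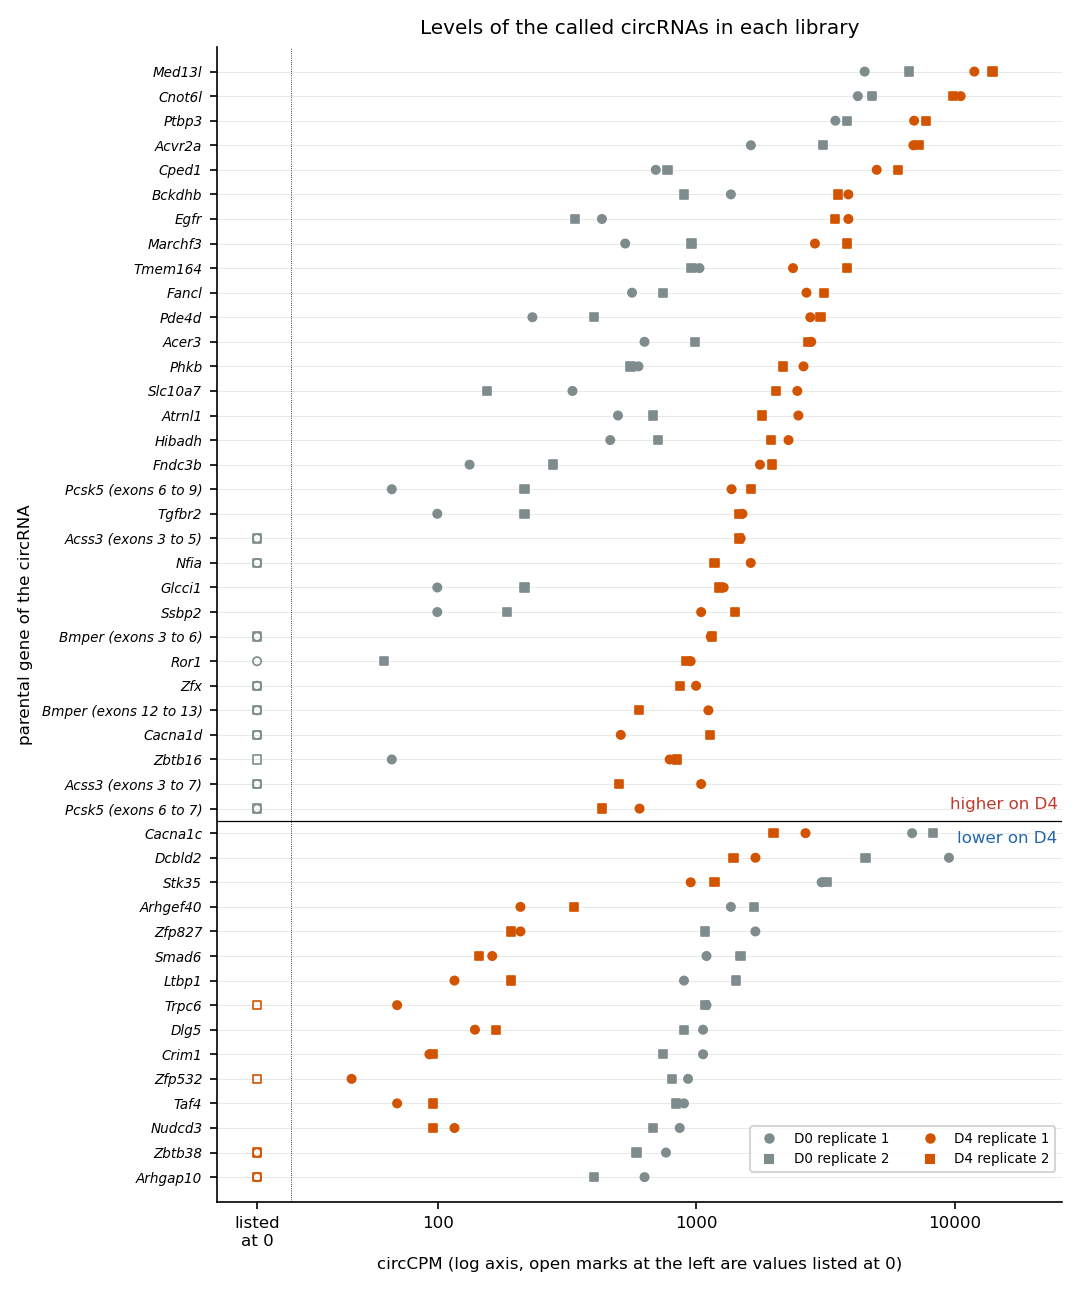
Levels of the called circRNAs, 1 row each by parental gene, as circCPM on a log axis, with circles for replicate 1 and squares for replicate 2 of D0 (grey) and D4 (orange). Open marks stand for values listed at 0. In every row both D4 marks lie to 1 side of both D0 marks, as for Egfr with 340 and 432 circCPM on D0 and 3433 and 3878 on D4. Of all 1407 tested circRNAs, 358 lay apart in this way with D4 higher and 384 with D4 lower.

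Transcription regulators of adipogenesis had 49 circRNAs in the table, from 20 of the 40 genes on the list, and 22 of these were tested. Of these 3 were called higher and 0 lower by edgeR, beside 2.2% and 1.07% of all tested circRNAs. At an unadjusted p under 0.05, 10 were higher and 0 lower, beside 11.2% and 8.67% of all tested. DESeq2 also called 3 and 0, beside 45 and 26 of the 1325 circRNAs it tested. The counts of every list below stand beside these same shares. The median log2 fold change of the adipogenic list was 1.19, beside 0.03 over all tested. It was 0.94 with circRNAs listed at 0 in a stage set at a floor of 3 reads in each library of that stage. A circRNA could pass the read filter through 1 stage alone, so this median and the others by list are descriptions. Without Nfia, Zbtb16 and Med13l, the genes of the 3 calls, the median of the 13 other tested circles was −0.03, and the 34 circRNAs left took 24411 and 15506 circCPM on D0 and 20966 and 17932 on D4. The called circle of Nfia, a nuclear factor I protein, holds exons 3 to 6 (chr4:97623065-97687645, plus strand), was listed at 0 in both D0 libraries and had 70 and 49 reads on D4 (adjusted p = 0.0302). A further Nfia circRNA, circ_0011879, chosen after its values had been seen, had 4 and 0 reads on D0 and 49 and 31 on D4 (adjusted p = 0.104).

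Zbtb16, also known as PLZF, is a zinc finger factor induced by glucocorticoids. Its circRNA of exons 2 to 4 had 2 and 0 reads on D0 against 34 and 35 on D4 (adjusted p = 0.0334). Med13l is a subunit of the kinase module of the Mediator complex, and circ_0001396 is its exon 2 alone. It had 135 and 215 reads on D0 and 513 and 583 on D4, 2.33-fold higher in mean circCPM with a log2 fold change of 1.31 ± 0.240 (SE) and an adjusted p of 0.0342. The libraries of the 2 stages did not overlap. circ_0001704 of Nfix, with 575 and 343 reads on D0 and 645 and 518 on D4, had the most reads of the list and a log2 fold change of −0.03 (adjusted p = 0.988). These 3 calls were lost without D4 replicate 1 (adjusted p 0.0808 to 0.11) or D4 replicate 2 (0.0732 to 0.155), and that of Nfia also without D0 replicate 2 (0.0511).

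Genes of lipid, carbohydrate and branched-chain amino acid metabolism had 20 tested circRNAs of 50. Of these 4 were higher and 0 lower by edgeR, 9 and 0 at an unadjusted p under 0.05, and DESeq2 called 5 and 0. The median log2 fold change was 1.12, or 0.85 with the floor of 3 reads. Together the 50 circRNAs took 6908 and 6902 circCPM on D0 and 14906 and 14547 on D4. The genes of the 4 calls, Acss3 with 2 circles, Bckdhb and Hibadh, held most of that difference, and without these 3 genes the 33 circRNAs left took 4450 and 4643 circCPM on D0 and 4922 and 5449 on D4. The median of the 11 tested among them was 0.29. The second Acss3 circle, of exons 3 to 7, was listed at 0 on D0 and had 45 and 21 reads on D4 (adjusted p = 0.0302). circ_0001822 of Bckdhb, which encodes the E1 beta subunit of the branched-chain ketoacid dehydrogenase, had 41 and 29 reads on D0 and 167 and 147 on D4, with a log2 fold change of 1.80 ± 0.301 (SE), 3.28-fold in mean circCPM (adjusted p = 0.0302). circ_0013437 of Hibadh, the 3-hydroxyisobutyrate dehydrogenase of valine catabolism, had 14 and 23 reads on D0 and 98 and 81 on D4, 3.59-fold (adjusted p = 0.0342).

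Of the 16 tested circRNAs of that list that were not called, 10 had log2 fold changes above 0 and 5 below 0. The circles of this paragraph that were not called were chosen after their values had been seen. circ_0005021 of Pcca, a propionyl-CoA carboxylase subunit, had 12 and 4 reads on D0 and 37 and 35 on D4 (adjusted p = 0.197). circ_0006376 of Gbe1, the glycogen branching enzyme, had 25 and 19 on D0 and 48 and 53 on D4 (adjusted p = 0.228). On the other side, circ_0011591 of Aco1, the cytosolic aconitase, had 23 and 26 on D0 and 28 and 0 on D4 (0.642), and circ_0015952 of Bckdhb had 14 and 14 on D0 and 14 and 4 on D4 (0.519). Without D4 replicate 1 the calls of Bckdhb, Hibadh and the longer Acss3 circle were lost (adjusted p 0.0662 to 0.198), and without D4 replicate 2 those of Bckdhb (0.126) and Hibadh (0.131). The call of Hibadh was lost without D0 replicate 1 as well (0.0721).

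The glucocorticoid, cAMP and insulin pathways, on which the cocktail acts, had 22 tested circRNAs of 42, of which 2 were higher and 0 lower by edgeR. There were 7 higher and 0 lower at an unadjusted p under 0.05, and DESeq2 called 3 and 0. The median log2 fold change was 0.96, or 0.87 with the floor, and 0.57 over the 18 circles left without Pde4d and Zbtb16, the genes of the 2 calls. One of the calls was Zbtb16. The other was circ_0004451 of Pde4d, a phosphodiesterase that degrades cAMP. It holds exons 9 to 13 (chr13:110724076-110729569, plus strand) and had 7 and 13 reads on D0 and 119 and 126 on D4, a log2 fold change of 3.26 ± 0.397 (SE), 9.12-fold (adjusted p = 0.0164). Its adjusted p was 0.0662 without D4 replicate 1 and 0.103 without D4 replicate 2. A second Pde4d circRNA, circ_0004450, also chosen after its values had been seen, had 3 and 4 reads on D0 and 29 and 24 on D4 (adjusted p = 0.0653). For circ_0014773 of Insr, the insulin receptor, 62 and 44 reads on D0 stood against 102 and 77 on D4, with a log2 fold change of 0.39 ± 0.315 (SE) and an adjusted p of 0.562.

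In the TGF-β, activin and BMP pathway, with 18 tested circRNAs of 45, 4 were higher and 2 lower by edgeR. DESeq2 gave the same counts, and 6 and 5 had an unadjusted p under 0.05. The median log2 fold change was 0.10. Without the genes of the called circles, the median of the 10 other tested circles was −0.37. The 27 circRNAs then left took 9200 and 6964 circCPM on D0 and 5921 and 5569 on D4. The circles called higher came from the type II receptors Tgfbr2 and Acvr2a and from Bmper. Bmper is a secreted protein that binds BMPs, and both of its called circles, of exons 3 to 6 (chr9:23058816-23105466, plus strand) and of exons 12 to 13, were listed at 0 on D0. On D4 they had 49 and 48 reads (adjusted p = 0.0225) and 48 and 25 reads (0.0302). circ_0001853 of Tgfbr2, the type II TGF-β receptor, holds exons 3 to 4 (chr9:116038934-116040831, minus strand) and had 3 and 7 reads on D0 and 65 and 61 on D4, with a log2 fold change of 3.29 ± 0.480 (SE) (adjusted p = 0.0254). circ_0001017 of Acvr2a, a type II activin receptor, had 49 and 100 reads on D0 and 298 and 302 on D4, 3.00-fold higher with a log2 fold change of 1.67 ± 0.310 (SE) (adjusted p = 0.0343). Circles of other receptors were not called. That of Acvr1, a type I receptor, had 9 and 9 reads on D0 and was listed at 0 on D4 (adjusted p = 0.137), and that of Bmpr2, a type II BMP receptor, had 19 and 5 on D0 and 15 and 8 on D4 (0.840). These 2 circles were chosen after their values had been seen.

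Circles of a matrix protein and of an inhibitory Smad were called lower. circ_0007013 of Ltbp1, which tethers latent TGF-β to the matrix, had 27 and 46 reads on D0 and 5 and 8 on D4, 7.53-fold lower (adjusted p = 0.0463). The circRNA of Smad6, an inhibitory Smad, had 33 and 48 on D0 and 7 and 6 on D4, 8.42-fold lower (adjusted p = 0.0489). For Smad4, the Smad shared by both branches, circ_0000894 had 66 and 58 reads on D0 and 82 and 72 on D4, a log2 fold change of −0.04 ± 0.363 (SE) (adjusted p = 0.979). Each of the 6 calls was lost without either D4 library, with adjusted p from 0.0662 to 0.218 without replicate 1 and from 0.0732 to 0.218 without replicate 2. Those of Ltbp1 and Smad6 were lost without D0 replicate 1 (0.0597 and 0.0721) or D0 replicate 2 (0.129 and 0.121), and that of Bmper exons 12 to 13 without D0 replicate 2 (0.0551).

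Calcium channels and calcium signalling had 9 tested circRNAs of 28, of which 1 was higher and 2 lower by edgeR and by DESeq2, and 1 higher and 4 lower at an unadjusted p under 0.05. The median log2 fold change was −1.06, and the 28 circRNAs together took 14082 and 15661 circCPM on D0 and 6896 and 6553 on D4. Both values rest on Cacna1c, which gave 5 of the 9 tested circles. Without it the list took 3554 and 2383 circCPM on D0 and 2554 and 2809 on D4, the median of the other 4 circles was 1.13, and over the 7 gene sums tested the median was −0.49. circ_0001511 of Cacna1c, the pore subunit of the L-type channel Cav1.2, holds exons 2 to 3 (chr6:119002619-119007533, minus strand). It had 206 and 267 reads on D0 and 114 and 83 on D4, with a log2 fold change of −1.61 ± 0.249 (SE), 3.26-fold lower in mean circCPM (adjusted p = 0.0302). All 5 tested Cacna1c circles had log2 fold changes below 0, and circ_0012993, with 51 and 47 reads on D0 and 29 and 31 on D4, was not called (adjusted p = 0.171). The circle of Cacna1d, the pore subunit of the related channel Cav1.3, differed in the other direction. circ_0005172 was listed at 0 in both D0 libraries and had 22 and 47 reads on D4 (adjusted p = 0.0302). circ_0001743 of Trpc6, a receptor-operated cation channel, had 33 and 35 reads on D0 and 3 and 0 on D4 (adjusted p = 0.0365). These 3 calls were lost without D4 replicate 1 (0.0662 to 0.0832) or D4 replicate 2 (0.131 to 0.177), that of Trpc6 without either D0 library (0.0708 and 0.0801) and that of Cacna1d without D0 replicate 2 (0.0578).

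Among receptor tyrosine kinases and MAPK signalling, 31 circRNAs of 65 were tested. Of these 2 were higher and 0 lower by edgeR, beside 2.2% and 1.07% of all tested (3 and 0 by DESeq2, and 4 and 1 at an unadjusted p under 0.05). The 2 calls by edgeR were Egfr and Ror1, a receptor for Wnt5a that also accounts for the single call among 8 tested circRNAs of Wnt signalling. The Ror1 circle of exons 2 to 4 had 0 and 2 reads on D0 and 41 and 38 on D4 (adjusted p = 0.0302, and 0.0925 and 0.126 without D4 replicates 1 and 2). circ_0001529 of Lrp6, a Wnt co-receptor, had 49 and 32 on D0 and 124 and 100 on D4 with a log2 fold change of 1.10 ± 0.340 (SE) and was not called (adjusted p = 0.126). The deepest circles of the list, from genes of Ras regulators, had values near 0. circ_0000239 of Spred2 had 105 and 114 reads on D0 and 121 and 156 on D4, and circ_0001829 of Rasa2 had 101 and 124 on D0 and 141 and 135 on D4, with log2 fold changes of −0.01 ± 0.242 and −0.05 ± 0.223 (SE).

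The matrix, adhesion and cytoskeleton list had 61 tested circRNAs of 151, with 1 higher and 2 lower by edgeR, 2 and 5 by DESeq2, and 11 and 10 at an unadjusted p under 0.05. Over all tested circRNAs, 2.2% were higher and 1.07% lower by edgeR, and 11.2% and 8.67% at that unadjusted p. circ_0010609 of Fndc3b, first described as a factor of adipocyte differentiation, had 4 and 9 reads on D0 and 76 and 82 on D4, 9.07-fold higher (adjusted p = 0.0225). circ_0000693 of Dcbld2, a transmembrane receptor-like protein, had 286 and 146 reads on D0 and 73 and 58 on D4, 4.54-fold lower with a log2 fold change of −2.09 ± 0.383 (SE) (adjusted p = 0.0342). The D0 replicates of Dcbld2 were themselves apart, yet both lay above both D4 libraries. The other call that was lower is an Arhgap10 circle described further on. Without D4 replicates 1 and 2 the adjusted p of Fndc3b was 0.0662 and 0.11, and that of Dcbld2 0.133 and 0.177. circ_0011707 of Svep1, a large secreted adhesion protein, had 130 and 122 reads on D0 and 299 and 279 on D4, with a log2 fold change of 0.84 ± 0.211 (SE), and was not called (adjusted p = 0.0771).

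Cell cycle, DNA replication and repair genes had 17 tested circRNAs of 52, of which 1 was higher and 0 lower by edgeR and by DESeq2, and 1 and 1 at an unadjusted p under 0.05, with a median log2 fold change of −0.01. The call was circ_0000248 of Fancl, the ubiquitin ligase of the Fanconi anaemia core complex, with 17 and 24 reads on D0 and 115 and 130 on D4, 4.43-fold higher (adjusted p = 0.0225, and 0.0808 and 0.126 without D4 replicates 1 and 2). For circ_0001663 of Mcph1, 86 and 86 reads on D0 stood against 61 and 69 on D4, a log2 fold change of −0.75 ± 1.07 (SE) (adjusted p = 0.772). This circle was listed at 0 in D8 replicate 1, which enters the spread, and its adjusted p was 0.140 with the D0 and D4 libraries only and 0.267 and 0.288 without D8 replicates 1 and 2. Chromatin regulators had the second most tested circRNAs of the lists, 57 of 125. Of these 0 were called by edgeR or by DESeq2, beside 2.2% higher and 1.07% lower of all tested by edgeR. At an unadjusted p under 0.05, 3 were higher and 1 lower, and the median log2 fold change was 0.07. The chromatin circles with the most reads were circ_0001047 of Phf21a, with 239 and 194 reads on D0 and 200 and 280 on D4, and circ_0001335 of Nsd2, with 162 and 115 on D0 and 164 and 126 on D4. Their log2 fold changes were −0.21 ± 0.255 (SE) and −0.30 ± 0.286 (SE), with adjusted p of 0.738 and 0.643 by edgeR.

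Splicing and RNA-binding regulators had 20 tested circRNAs of 54, of which 1 was higher and 0 lower by edgeR and by DESeq2, and 2 and 1 at an unadjusted p under 0.05. Their median log2 fold change was 0.80, while the 54 circRNAs together took 26536 and 26648 circCPM on D0 and 24705 and 26045 on D4. Without Ptbp3, the gene of the call, the median of the 16 other tested circles was also 0.80. The 48 circRNAs then left took 21953 and 21108 circCPM on D0 and 16578 and 16900 on D4. The call was circ_0011724 of Ptbp3, a polypyrimidine tract binding protein, with 104 and 124 reads on D0 and 300 and 323 on D4. At 2.02-fold, with a log2 fold change of 1.10 ± 0.219 (SE), it was the called circRNA with the smallest change (adjusted p = 0.0407). It was lost without any 1 of the D0 and D4 libraries (adjusted p 0.0551 to 0.218). circ_0000819 of Hnrnpll had 140 and 171 reads on D0 and 127 and 147 on D4 (log2 fold change −0.53 ± 0.225 (SE), adjusted p = 0.249). Genes known for circRNAs that are abundant in many tissues had 30 tested circRNAs of 54, 1 higher (Med13l) and 0 lower by edgeR, 2 and 0 by DESeq2, and 3 and 1 at an unadjusted p under 0.05. circ_0001052 of the kinase gene Hipk3 had the most reads on D4, with 311 and 360 on D0 and 865 and 782 on D4 (log2 fold change 0.95 ± 0.211 (SE), adjusted p = 0.0573). On none of the lists but among the 5 circRNAs with the most reads was circ_0001624 of Mettl9, a histidine methyltransferase, with 173 and 288 on D0 and 484 and 473 on D4 (log2 fold change 0.72, adjusted p = 0.141). circ_0000604 of Pvt1, a noncoding gene, had 235 and 422 on D0 and 502 and 438 on D4 (log2 fold change 0.18, adjusted p = 0.783).

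**Figure D3:**
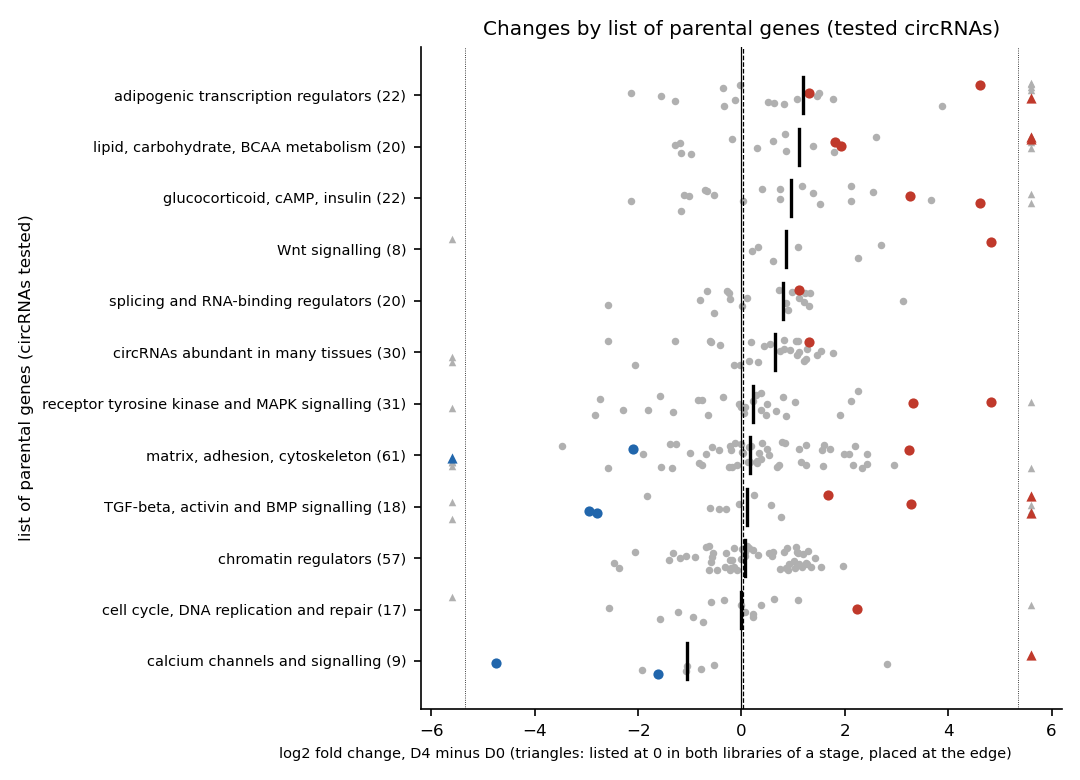
Log2 fold changes (D4 minus D0) of the tested circRNAs in each list of parental genes, the number tested in parentheses. Red and blue points are called higher and lower, grey points are not called, triangles at the edges are listed at 0 in both libraries of 1 stage, short black bars are the medians of the fitted values and the dashed line is the median of all tested circRNAs. Medians run from −1.06 for calcium signalling to 1.19 for adipogenic transcription regulators.

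The other circRNAs higher on D4 came from genes on none of the lists. The largest of these changes in a circle with more than 3 reads in every library was that of Slc10a7, a solute carrier family member, whose circle of exons 2 to 10 spans 191363 bases of the genome. It had 10 and 5 reads on D0 and 106 and 85 on D4, 9.25-fold (adjusted p = 0.0225). Glcci1, a glucocorticoid-induced transcript, gave a circle with 3 and 7 reads on D0 and 55 and 51 on D4 (adjusted p = 0.0302). circ_0001707 of Phkb, a regulatory subunit of the kinase that activates glycogen phosphorylase, had 18 and 18 reads on D0 and 112 and 90 on D4, 4.12-fold (adjusted p = 0.0302). circ_0007399 of the membrane ubiquitin ligase gene Marchf3 had 16 and 31 on D0 and 124 and 160 on D4, 4.51-fold (adjusted p = 0.0302). circ_0012878 of Cnot6l, a catalytic subunit of the CCR4-NOT deadenylase, was among the most abundant, with 127 and 155 reads on D0 and 454 and 410 on D4, 2.26-fold (adjusted p = 0.0302). The circle of Zfx, an X-linked zinc finger factor, was listed at 0 on D0 and had 43 and 36 reads on D4 (adjusted p = 0.0343). Pcsk5, a proprotein convertase, had 2 called circles that share their first exon, 1 of them listed at 0 on D0 with 26 and 18 reads on D4. Ssbp2, Acer3, Tmem164 and Atrnl1 gave 1 call each. All calls of this paragraph were lost without D4 replicate 1 (adjusted p 0.0808 to 0.226) or D4 replicate 2 (0.0732 to 0.218). Those of Glcci1, Ssbp2, Tmem164, Pcsk5 and Atrnl1 were lost without D0 replicate 1 (0.0579 to 0.104), and those of Phkb, Ssbp2, Zfx, Tmem164, Pcsk5 and Atrnl1 without D0 replicate 2 (0.0551 to 0.0801).

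The other circRNAs lower on D4 also came from genes on none of the lists. The circle of Zbtb38, a zinc finger protein that binds methylated DNA, had 23 and 19 reads on D0 and was listed at 0 in both D4 libraries (adjusted p = 0.0302). circ_0000884 of Zfp532 had 28 and 26 on D0 and 2 and 0 on D4 (0.0342), and circ_0001698 of Zfp827 had 51 and 35 on D0 and 9 and 8 on D4, 6.93-fold lower (0.0343). circ_0009653 of Taf4, a TFIID subunit, had 27 and 27 on D0 and 3 and 4 on D4 (0.0342). In each of these the D4 libraries lay far below both D0 libraries. circ_0000818 of Crim1, a transmembrane protein that binds BMPs, had 32 and 24 reads on D0 and 4 and 4 on D4, 9.56-fold lower (0.0373). circ_0005268 of Arhgef40, a guanine nucleotide exchange factor, had 41 and 54 on D0 and 9 and 14 on D4, 5.56-fold lower (0.0373). circ_0001066 of the kinase gene Stk35, from a single exon, had 92 and 103 on D0 and 41 and 49 on D4, 2.93-fold lower (0.0455), the smallest change among the calls that were lower. Nudcd3 and Dlg5 gave the other 2. All 9 calls were lost without either D4 library (0.0673 to 0.255 without replicate 1 and 0.126 to 0.218 without replicate 2). All but that of Zbtb38 were lost without D0 replicate 1 (0.0692 to 0.126), and all but those of Zbtb38 and Zfp827 without D0 replicate 2 (0.0614 to 0.0961).

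Reads summed over all circRNAs of a parental gene are deeper and were tested for 1108 genes. Of these 61 were higher on D4 (5.51%) and 35 lower (3.16%) by edgeR at an adjusted p under 0.05, and 13.6% and 11.1% at an unadjusted p under 0.05. In all 96 the D4 libraries lay to 1 side of both D0 libraries, and the share of all tested sums for which this held was not counted. Of the 96, 15 genes were listed at 0 in both D0 libraries and 6 in both D4 libraries. With column totals in place of TMM factors, which shifts every log2 fold change of a sum by 0.14, 47 genes were higher and 46 lower. With the D0 and D4 libraries alone, where 856 genes were tested, 50 were higher and 50 lower, and DESeq2 called 56 and 34. Of the 96 genes, 42 had a called circRNA and 54 had none, and 44 of those 54 had 2 or more circRNAs in the table. For 22 genes the call held in all 11 alternative settings.

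The smallest p among sums that were higher were those of Acss3, listed at 0 on D0 with 117 and 99 reads on D4 over 6 circRNAs (adjusted p = 0.000331), and of Egfr, with 13 and 11 reads on D0 and 176 and 164 on D4, 10.4-fold (0.000331). Cped1 (8.33-fold, 0.000941), Bmper (listed at 0 on D0, with 163 and 112 reads on D4 over 8 circRNAs, 0.00111) and Pde4d (8.20-fold, 0.00111) followed. All 5 held without any 1 library. Among sums that were lower, Zfp827 had 68 and 60 reads on D0 and 13 and 8 on D4, 8.33-fold (0.00473), Zbtb38 had 32 and 32 on D0 and was listed at 0 on D4 (0.00473), and Zfp532 had 53 and 48 on D0 and 4 and 0 on D4 (0.00542). Cacna1c had 317 and 429 on D0 and 187 and 156 on D4, 2.94-fold (0.00542), with an adjusted p of 0.0913 without D4 replicate 2. Farp1, a gene of 6 circRNAs none of which was called, had 64 and 65 reads on D0 and 12 and 2 on D4 (0.00762), and an adjusted p of 0.0642 without D0 replicate 2.

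Of the genes called by their sum and by no single circle, those of this paragraph and the next were chosen after their values had been seen. Pparg, the master regulator of adipogenesis, had 5 circRNAs, no called circle and sums listed at 0 on D0 and at 13 and 18 reads on D4 (adjusted p = 0.0158). The adipogenic list had 5 of its 15 tested genes higher and 0 lower, beside 5.51% and 3.16% of all sums tested, the others being Nfia, Zbtb16, Med13l and Mlxipl, which encodes the carbohydrate response factor ChREBP and had 10 and 7 reads on D4 against listed 0 on D0 (0.0275). Fkbp5, a co-chaperone of the glucocorticoid receptor and a classic target of it, had 6 and 3 reads on D0 and 62 and 40 on D4, 8.21-fold (0.00542). Tgfbr3, the TGF-β co-receptor betaglycan, had 7 circRNAs, none deep enough to test alone, with sums listed at 0 on D0 and at 35 and 35 reads on D4 (0.00542). Smad1, which transmits BMP signals, has a single circRNA in the table, not called on its own (adjusted p = 0.0884), and had 89 and 62 on D0 and 38 and 17 on D4, 3.78-fold lower (0.0490). Hipk3, with 1 circRNA, was called at this level (1.81-fold, 0.0189), where fewer features were tested and the common dispersion was 0.128, against 0.219 for circRNAs.

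Sdk1, a neuronal adhesion molecule, had 9 and 8 reads on D0 and 104 and 100 on D4, 8.81-fold (adjusted p = 0.00473). Celf2, a splicing regulator, had 9 and 7 on D0 and 84 and 51 on D4, 6.16-fold (0.00603). Fbln2, the matrix protein fibulin 2, had 30 and 38 on D0 and 0 and 4 on D4 (0.0187), and Myo10, an unconventional myosin of filopodia, had 12 and 11 on D0 and was listed at 0 on D4 (0.0490). The call of Tgfbr3 held in all 11 settings, with an adjusted p of at most 0.0326. Those of Sdk1, Fkbp5 and Celf2 held in 10 and were lost without D0 replicate 2 (0.0564, 0.0564 and 0.0642). The others held in 8 settings for Pparg and Fbln2, 7 for Hipk3, 5 for Smad1, 4 for Mlxipl and 3 for Myo10. Their adjusted p was highest without D0 replicate 2 for Mlxipl (0.0782) and Fbln2 (0.0914), without D0 replicate 1 for Myo10 (0.172), without D4 replicate 1 for Hipk3 (0.136) and without D4 replicate 2 for Pparg (0.0577) and Smad1 (0.242).

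**Figure D4:**
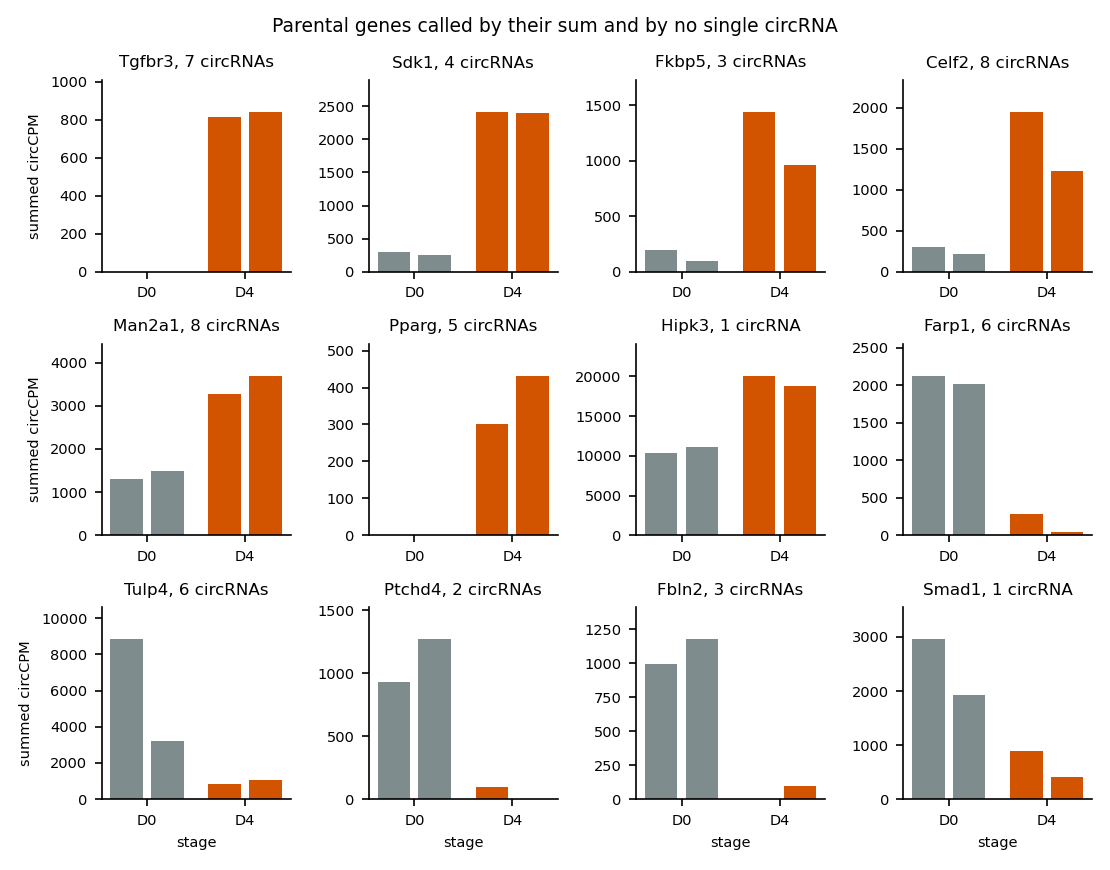
Summed circCPM over all circRNAs of 12 parental genes in each D0 (grey) and D4 (orange) library, 1 panel a gene with its own axis from 0 and its number of circRNAs. The genes, called by their sum and by no single circle, were chosen after their values had been seen. In every panel, from Tgfbr3, listed at 0 on D0, to Smad1, the bars of both D4 libraries lie to 1 side of both D0 bars.

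Whether circles of the same gene moved apart was tested for 683 circRNAs in 264 genes that had at least 2 tested circRNAs. By edgeR's exon-usage test with circles in place of exons, 1 circRNA was called (0.146%), and 32 had an unadjusted p under 0.05. At the level of the gene 0 were called (0.0%), 13 had an unadjusted p under 0.05, and no other tool was run. Of the 24 genes with a called circRNA and another tested one, 19 had all their circles on the same side of 0. The exceptions were Ptbp3, Slc10a7, Bckdhb, Atrnl1 and Arhgap10. The 24 genes were picked for a called circle, which is itself among the circles counted, and the share over the other genes was not counted.

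Arhgap10, a GTPase-activating protein, had 13 tested circRNAs, and its summed reads were not called (log2 fold change −0.13, adjusted p = 0.708). The 1 call was circ_0014985, of exons 14 to 15 (chr8:79882446-79889059, minus strand), with 19 and 13 reads on D0 and listed at 0 in both D4 libraries (adjusted p = 0.0123 within the gene and 0.0407 on its own). The circle of exons 12 to 16 came next, with 6 and 10 reads on D0 and listed at 0 on D4 (adjusted p = 0.0615 within the gene). In the other direction circ_0014982, of exons 16 to 18, had 22 and 31 reads on D0 and 75 and 85 on D4 (0.344). circ_0001692, of exons 14 to 18, the deepest of the gene, had 154 and 157 on D0 and 127 and 120 on D4. The circles overlap in their exons and share ends, so reads of 1 gene are divided among them. The call within the gene was lost without D0 replicate 1, D4 replicate 1, D4 replicate 2 or either D8 library, with adjusted p of up to 1.0 over the settings, and that of the circle on its own without any 1 of the D0 and D4 libraries (0.0643 to 0.141). In Bckdhb, circ_0015952 of exons 2 to 6 had 14 and 14 reads on D0 and 14 and 4 on D4, and circ_0015953 of exons 2 to 8 was listed at 0 on D0 with 8 and 25 reads on D4, both with an adjusted p of 0.344 within the gene.

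**Figure D5:**
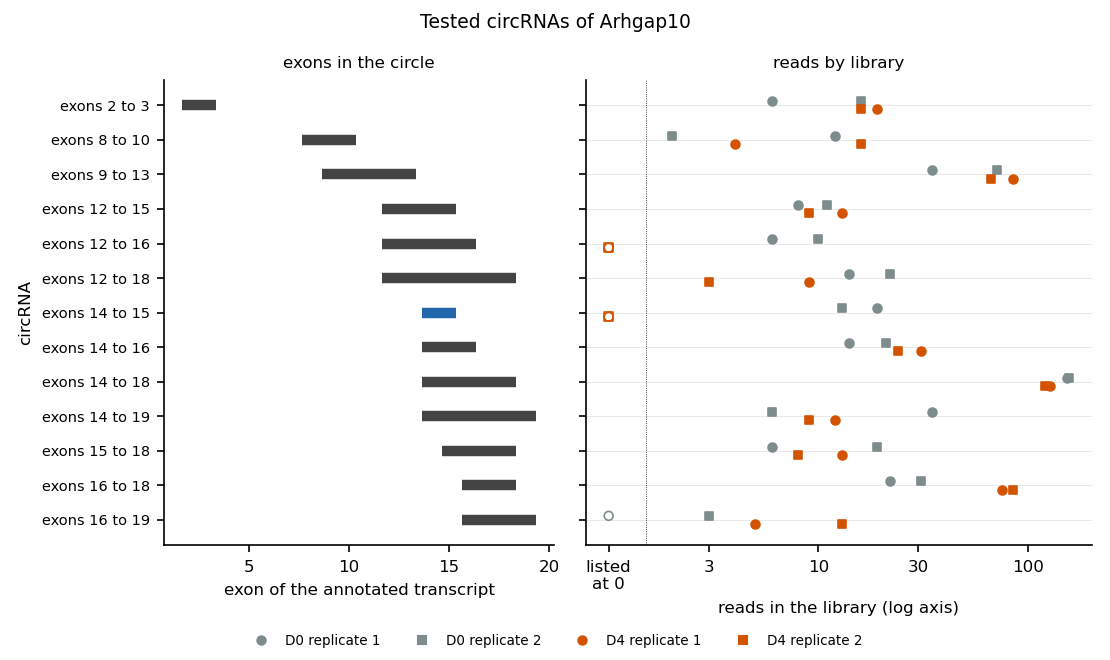
The 13 tested circRNAs of Arhgap10, with the exons each holds (left, exon number of the annotated transcript) and its reads in each D0 and D4 library (right, log axis, open marks for values listed at 0). The circle of exons 14 to 15 (blue) had 13 and 19 reads on D0 and was listed at 0 on D4, while the circle of exons 16 to 18 had 22 and 31 on D0 and 75 and 85 on D4.

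With 2 or more reads in both replicates required, 1255 circRNAs were detected on both days, 856 on D0 and not on D4, and 893 on D4 and not on D0. Few of these were deep. The 856 had a median of 10 reads over the D0 libraries, 10 of them had 40 or more, 171 were deep enough to test and 4 were called. The 893 had a median of 11 reads over the D4 libraries, 38 had 40 or more, 205 were tested and 10 were called. Of all 1407 tested circRNAs, 31 were called higher (2.2%) and 15 lower (1.07%). With all libraries thinned to 30110 reads the order turned, with 914 on D0 only and 736 on D4 only.

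The make-up of the called circles is given by direction. The 31 higher on D4 had a median of 4 exons and a genomic span of 22299 bases, with 1 of a single exon, and 77.4% had an end in common with a further circRNA. The 15 lower had a median of 2 exons and 4915 bases, with 2 of a single exon, and 53.3% had such an end, beside 3 exons, 7491 bases and 55.7% over all tested circRNAs. Spliced lengths were close, with medians of 449, 415 and 438 bases. The exon next to the first is often where a circle starts, and 15 of the 31 higher circles, 5 of the 14 lower circles with exon structure and 41.8% of the 1312 tested circRNAs with exon structure started at exon 2. No test was run on these sets, which also had unequal depth, with medians of 206 reads for the higher circles, 74 for the lower and 46 for all tested, and the part of depth in these values was not tested. Over all reads of a library, the share from single-exon circles was 14.3% and 13.7% in the D0 libraries and 11.7% and 11.5% in the D4 libraries, and the median genomic span was 6040 and 5754 bases on D0 and 7551 and 7580 on D4. Neither overlapped between the days, and an exact two-sided permutation test of 2 against 2 libraries cannot go below the p of 0.33 that both gave.

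Markers of the cell types that the SVF could hold were few among the circRNAs. Of 20 adipocyte markers 5 had circRNAs, 12 in all, which together took 764 and 124 circCPM on D0 and 1045 and 1152 on D4. Of these 2 were tested, for Pparg and Acaca, and 0 were called by edgeR or DESeq2, with 1, that of Pparg, higher at an unadjusted p under 0.05. Circles of Lipe, Cd36 and Lpl were listed at 0 in all 4 libraries, and Adipoq, Plin1 and Fabp4 had none in the table. Of 17 preadipocyte and fibroblast markers Pdgfra and Ebf2 had 1 circRNA each, which took 365 and 310 circCPM on D0 and 209 and 72.0 on D4. The Pdgfra circle had 8 and 10 reads on D0 and 3 and 0 on D4 (adjusted p = 0.335). Of 17 macrophage and leukocyte markers Mertk and Adgre1 had 3 circRNAs, with 66.4 and 186 circCPM on D0 and 534 and 480 on D4. circ_0009326 of Mertk, a phagocytic receptor, had 0 and 6 reads on D0 and 21 and 20 on D4 (adjusted p = 0.246). This circle, the only 1 tested of the 3, was higher at an unadjusted p under 0.05 by edgeR. The Adgre1 circle was listed at 0 in these 4 libraries. No marker of endothelial cells, pericytes or glia had a circRNA in the table, so the table bears on none of these cell types. The part of the macrophage circles in the changes was not tested.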

How the data were processed

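The authors trimmed reads with fastp 0.20.1, mapped them onto mm9 (BWA-MEM 0.7.17) and found back-splices with CIRI2. They deposited, per circRNA and library, a raw back-splice read count, without normalization, keeping circles that reached 2 reads in each replicate of at least 1 stage. The submitters' processing notes also name FastQC 0.11.9 and HISAT2 2.2.0. Serum in the growth medium and the digestion time differ between the labels and the methods. Counts of all 6 libraries (column totals 30110 to 50672) were fitted in edgeR 4.0.16 (R 4.3.3) with TMM factors, filterByExpr (minimum count 10, minimum total 15), the quasi-likelihood F-test of D4 against D0 and Benjamini-Hochberg adjustment at 0.05 over all features tested. diffSpliceDGE compared circles within genes, and the scripts were tested on simulated data. SE is the absolute log2 fold change divided by the square root of F. Exons follow GENCODE vM1 on mm9, read from the transcript that fits most exons into the circle. Reads carry no molecular identifiers, so depth covers counting error only. Alternatives were DESeq2 1.42.0, other factors and filters, D0 and D4 libraries only, a replicate block, no isolated zeros (0 in 1 replicate and 15 or more reads in the other), thinning and the omission of each library. Named circRNAs follow a rule: the 15 higher and 12 lower with the smallest p, every call and the 2 deepest circRNAs of each list, the 5 deepest circRNAs, the 5 calls nearest 0, genes past the within-gene test or else the 5 first, and the 5 highest and 5 lowest sums. Others, among them circles of Pcca, Gbe1, Aco1, Acvr1, Bmpr2 and the cell-type markers and the second circles of Nfia and Pde4d, were chosen after their values had been seen. No gene passed the within-gene test at the level of the gene. Of its 5 first genes, Arhgap10 and Bckdhb are described, and Atxn2, Vmn1r90 and Adamts6 are not. The members and lists were chosen with earlier results of these data known.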

Additional observations from a re-analysis of the deposited data

How the results depend on the processing

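No call of a circRNA or gene had the other sign under any setting. The 46 circRNA calls (31 higher, 15 lower) became 71 with DESeq2 (26 lower), 76 with the D0 and D4 libraries only (34 lower) and 109 without isolated zeros (66 higher, 43 lower), and 46 of the 46 remained in each. No filter gave 6 lower and a mean of 20 or more reads 25 lower. Same-numbered replicates did not deviate together (correlations 0.0352, 0.0698 and 0.0470), and with the replicate number as a block 17 remained (15 higher, 2 lower). Omission of each library gave 4 to 67 calls, 3 to 47 higher and 0 to 20 lower. Of calls, 67.4% were higher, against 81.3% without a filter, 56.1% at a mean of 20 reads, 55.3% with 4 libraries, 88.2% with the block, and 91.4%, 85.7% and 100.0% without D0 replicate 1, D0 replicate 2 and D4 replicate 2. The cause was not tested. Gene sums gave 96 calls (61 higher, 35 lower), 56 without a filter (39 and 17), 84 with the block (60 and 24) and 37 to 64 with a library omitted (29 to 53 higher, 7 to 20 lower). At a mean of 20 reads the circle of the within-gene call fell under the filter and was not tested (0 calls), and a library omitted left 0 to 1 calls.

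Detection at 5 or more reads gave 1156 circRNAs on D0, 1367 on D4, 780 on both, 376 on D0 only and 587 on D4 only, and 2 reads in either replicate gave 2371, 542 and 548 for the last 3. Log2 fold changes near 0, none called, changed sign: without a filter circ_0001829 (0.0038), circ_0000894 (0.016), circ_0001704 (0.037) and circ_0000239 (0.045), at a mean of 20 reads circ_0000604 (−0.086), and with the block circ_0001704 (0.022). With a library omitted, circ_0001335 ran from −0.55 to 0.065, circ_0001047 from −0.44 to 0.040, circ_0000604 from −0.11 to 0.61, circ_0001829 from −0.11 to 0.061, circ_0000894 from −0.17 to 0.14, circ_0001704 from −0.37 to 0.49 and circ_0000239 from −0.17 to 0.16. Depth limits the rest: at a median of 17 reads in all, circRNAs under the read filter were not tested.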
